A study of Homo sapiens with 6 samples.

Results

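The proteasome genes described here are those whose platform symbol is PSMA, PSMB, PSMC, PSMD, PSME, PSMF or PSMG with a number, or POMP. Of 44 such genes with an annotated probe, 41 had a probe whose detection p was below 0.05 on 3 or more of 6 arrays, and they make up 41 of the 10779 genes tested. PSMA8, PSMB11 and PSMF1 were too dim to be tested, and PSMA7, PSMC5, PSMD7, PSMD13 and PSMG4 were not analysed here. All 41 were detected on all 6 arrays. RNA came from A549, an established line of human lung adenocarcinoma cells that carries a KEAP1 mutation, on Illumina Human-6 bead arrays. One group was 3 arrays of control cells, for which no source used here names a vehicle, and the other was 3 arrays of cells given the compound DAMTC at 160 µg/ml for 24 h. The design text calls them biological triplicates but does not mention separate cultures. The p-values therefore measure spread among arrays that may be technical.

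The proteasome is the protease that degrades most ubiquitin-tagged proteins of the cell. Its barrel, the 20S core, is built from rings of alpha subunits (PSMA) and beta subunits (PSMB), of which PSMB5, PSMB6 and PSMB7 cut peptide bonds, and the immunoproteasome subunits PSMB8, PSMB9 and PSMB10 can take their places. The 19S cap recognises ubiquitin and unfolds the substrate with its ATPases (PSMC) and further subunits (most PSMD), while other activators (PSME) can bind the core instead. Assembly factors hold immature parts together and are not part of the finished particle. When the proteasome is inhibited, the transcription factor NFE2L1 is known to raise many of these genes together, through antioxidant response elements in their promoters.

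Across the array, all 6 samples lay on 1 BeadChip with controls at the first 3 positions and DAMTC at the last 3, so position and treatment cannot be told apart. The arrays had between 16329 and 17835 probes detected and a mean bead intensity of 528 to 673, and between 21 and 63 beads stood behind each member value. On the second principal component of all genes, with 22.9% of the variance, control replicate 1 had a score of 56.5, against -36.0 for control replicate 2 and -19.5 for control replicate 3. This array was the control farthest from the others in 21 of 41 proteasome genes and in 57.3% of all genes. The epithelial genes KRT7, KRT8, KRT18, KRT19, EPCAM, CDH1 and ALDH1A1 were detected on all 6 arrays and AKR1C1 on none, with a summed intensity of 37167 to 56021 in controls and 40055 to 51550 with DAMTC. Of these, CDH1, the adhesion protein E-cadherin, fell 3.12-fold (-1.64 ± 0.43, adjusted p = 0.0239), from 7.94, 8.52 and 8.65 in controls to 5.75, 7.08 and 7.36 with DAMTC. CDH1 did not pass without control replicate 2, control replicate 3 or DAMTC replicate 1 (adjusted p = 0.0537, 0.0795 and 0.0551). The lung lineage genes NKX2-1 and SFTPC were detected on 1 array and SFTPB and NAPSA on none. Of 4 leukocyte markers PTPRC and CD3E were detected on no array, and CD14 and CD68 were detected on all 6, with a summed intensity of 1444 to 2390 in controls and 2433 to 5950 with DAMTC. They lay on opposite sides of 0, CD68 at 1.10 ± 0.37 (adjusted p = 0.0627) and CD14 at -0.81 ± 0.32 (adjusted p = 0.103). Of 3 endothelial markers VWF and CDH5 were detected on no array and PECAM1 on all 6 (45.6 to 48.1 against 52.7 to 92.9), and none of 4 fibroblast markers was detected on more than 1 array. Their part in the results below was not tested. In such bulk RNA, fewer cells and less RNA per cell cannot be told apart.

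With DAMTC, 1 of 41 proteasome genes passed the threshold (adjusted p under 0.05 over all genes tested), against 24.9% of all genes. It was PSMD8, a subunit of the lid of the 19S cap, which rose. In the higher direction the background was 12.2% of all genes, and in the lower direction, where 0 proteasome genes passed, it was 12.8%. At an unadjusted p under 0.05 limma gave 3 of 41 proteasome genes higher and 1 lower, against 1942 higher and 2118 lower of all 10779 genes. The share of genes past the threshold differed with the level of intensity. Of the 21 members at or above their own median level (11.67 on the log2 scale), 0 passed, against 10.5% of all genes at that level, and of the 20 members below it 1 passed, against 26.5%.

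The 41 differences ran from -0.86 to 1.10 with a median of 0.24, all on the log2 scale as DAMTC minus control, beside a median of -0.04 over all genes. The members' median was 0.12 without control replicate 1, 0.14 without control replicate 2 or DAMTC replicate 2, and 0.02 with array weights. The median absolute difference was 0.35 for the proteasome genes, 0.52 for all genes and 0.33 for all genes at or above the members' median level. A difference of 1 or more (2-fold) was measured in 2 members, 4.88% of them, against 25% of all genes and 8.3% of those at or above the members' median level. For 22 members the 95% interval of the difference lay within 1 log2 unit of 0 on both sides, and this held for 30.5% of all genes and 50.2% of those at the members' level. For the other 19, PSMD8 among them, the interval reached past a 2-fold difference in at least 1 direction, so that its bounds do not exclude one. The groups did not overlap for 13 members (31.7%), against 41.9% of all genes and 34% of those at the members' level. DAMTC was above in 9 members and below in 4, against 20.2% and 21.7% of all genes.

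**Figure D1:**
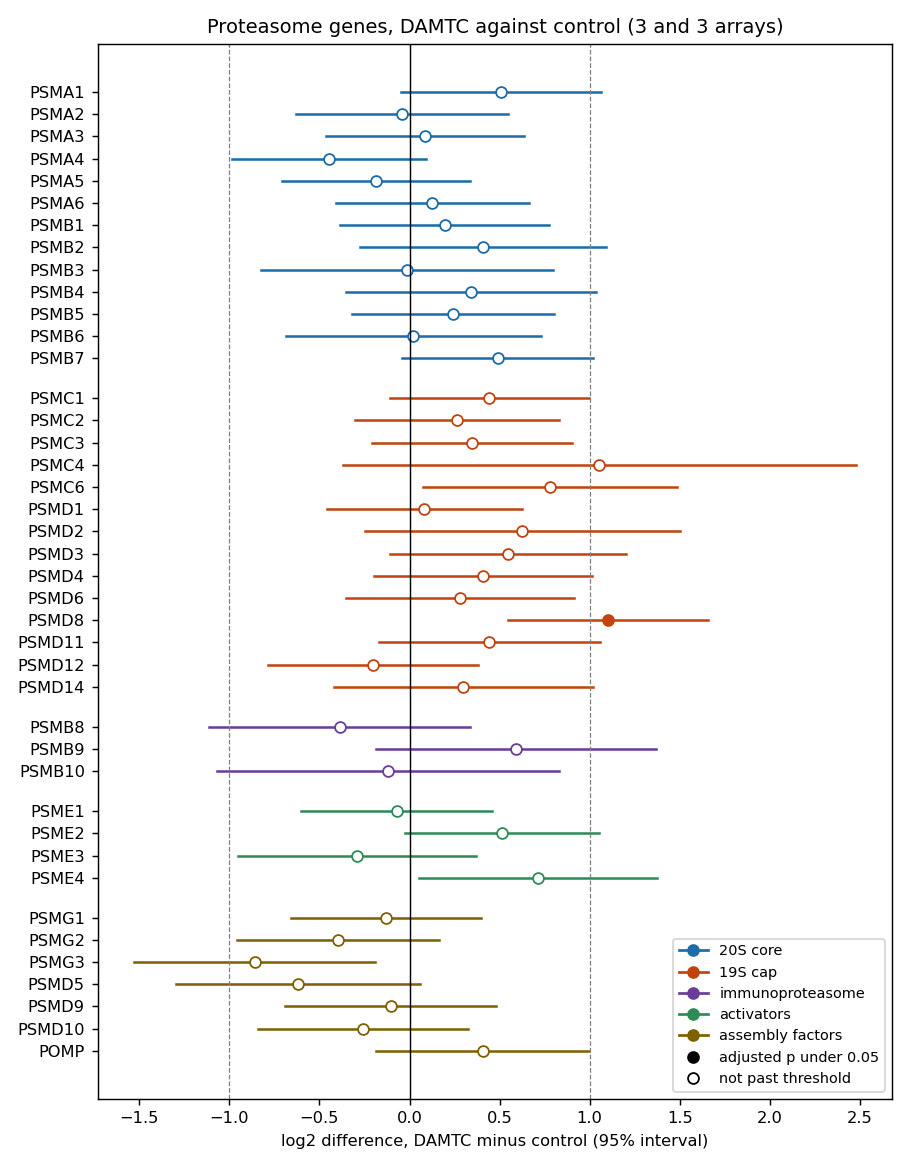
Log2 difference (DAMTC minus control, x axis) of each of the 41 proteasome genes with its 95% interval, coloured by class, with dashed lines at a 2-fold difference in each direction. PSMD8 is the filled point, at 1.10, and the points of the 20S core lie between -0.45 and 0.51.

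The promoters of PSMD8, the gene that passed, and of PSMB3, whose difference was nearest to 0, are shown as a description of their sequence. PSMB3 differed by -0.01 ± 0.36, and by -0.60 to 0.33 over 16 alternatives. Windows of 300 bases around the start were found in RefSeq (GRCh38.p14) for 36 of the 41 genes, 43 windows in all. They were searched on both strands for TGACNNNGC, the core of the antioxidant response element, for CCAAT, bound by NFY, and for CCGGAAG, bound by ETS factors. The first was in 32.6% of the members' windows and 13.3% of all 35116 windows, the second in 39.5% and 34.6%, and the third in 25.6% and 10.3%. The letters of these motifs are in capitals in the 250 bases before each start, 5′ to 3′. The PSMD8 stretch is chr19:38374321-38374570 on the plus strand and holds 1 CCAAT and 1 CCGGAAG, both on the minus strand. That of PSMB3 is chr17:38752491-38752740 on the plus strand and holds 1 TGACNNNGC and 2 CCAAT. A match is a description of letters and not a bound site. The windows of PSMC2, PSMD6 and PSMD14, which did not pass, also held both CCAAT and CCGGAAG. Whether these motifs bear on the response was not tested.
PSMD8: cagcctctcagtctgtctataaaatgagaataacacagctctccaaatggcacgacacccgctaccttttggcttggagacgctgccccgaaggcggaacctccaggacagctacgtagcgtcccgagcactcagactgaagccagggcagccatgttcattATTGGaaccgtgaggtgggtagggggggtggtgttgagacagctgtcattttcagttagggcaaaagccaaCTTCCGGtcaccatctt
PSMB3: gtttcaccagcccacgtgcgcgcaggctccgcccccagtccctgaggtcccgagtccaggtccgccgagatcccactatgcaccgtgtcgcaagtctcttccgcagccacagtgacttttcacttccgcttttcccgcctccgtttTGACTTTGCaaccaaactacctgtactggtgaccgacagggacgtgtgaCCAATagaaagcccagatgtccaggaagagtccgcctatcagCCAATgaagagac

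In the 20S core, whose median level was 12.80, 0 of 13 genes passed. The background was 24.9% of all genes and 10.5% of those at or above 11.67, and 13 genes are few to set against it. The median difference was 0.13 (lowest -0.45, highest 0.51). That median was 0.04 without control replicate 1, 0.32 without control replicate 3 and 0.0057 with array weights. The alpha subunits form the outer rings and the gate through which substrates enter. PSMA1 read 12.80, 12.82 and 13.03 on the control arrays and 13.25, 13.67 and 13.24 on the DAMTC arrays. All 3 DAMTC values were above all control values, with a difference of 0.51 ± 0.24 (SE, n = 3 per group, adjusted p = 0.166), and a second PSMA1 probe read 0.61. PSMA4 read 13.04, 13.01 and 13.22 in controls and 12.70, 12.80 and 12.41 with DAMTC. Here all DAMTC values were below the controls (-0.45 ± 0.24, adjusted p = 0.205), and a second probe read -0.50. These 2 alpha subunits of the same ring thus lay on opposite sides of 0, and neither passed. The differences of the other alpha subunits were smaller, -0.19 for PSMA5, -0.04 for PSMA2, 0.09 for PSMA3 and 0.13 for PSMA6, where a second PSMA6 probe read 0.52 (adjusted p = 0.151 over all probes).

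Among beta subunits, PSMB7, which carries the trypsin-like activity, read 12.39, 12.59 and 12.63 in controls and 13.11, 13.14 and 12.82 with DAMTC. The groups did not overlap (0.49 ± 0.23, adjusted p = 0.164). The other catalytic subunits overlapped between groups, with a difference of 0.24 ± 0.25 for PSMB5, which carries the chymotrypsin-like activity, and of 0.02 ± 0.31 for PSMB6, which carries the caspase-like one. PSMB2, a structural subunit, read 10.65, 11.23 and 11.65 in controls and 11.71, 11.65 and 11.40 with DAMTC (0.41 ± 0.30, adjusted p = 0.365). The low value was that of control replicate 1, and without this array the difference was 0.14. The remaining structural subunits PSMB1, PSMB3 and PSMB4 differed by 0.19, -0.01 and 0.34, and their groups overlapped. For each of the 7 beta subunits control replicate 1 was the lowest of the 6 arrays.

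In the 19S cap, 1 of 14 genes passed, against 24.9% of all genes. A positive difference was seen in 13 of 14, with a median of 0.43 (lowest -0.20, highest 1.10) that was 0.25 without control replicate 2. Of all 10779 genes 5146 had a positive difference, and over 16 alternatives the count in the cap ran from 12 to 14. The difference between the cap median and that of the core was not tested. PSMD8 read 10.71, 10.42 and 10.88 in controls and 11.95, 11.71 and 11.66 with DAMTC. The lowest DAMTC value was above the highest control value, and the rise was 2.15-fold (1.10 ± 0.24, 95% interval 0.55 to 1.66, adjusted p = 0.0122). PSMD8 rests on a single probe. With DAMTC replicate 1 left out PSMD8 no longer passed (1.01, adjusted p = 0.0570), and over 16 alternatives its adjusted p ran from 0.00316 to 0.0593.

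The ATPases pull the substrate into the core. PSMC6 read 12.40, 11.32 and 11.70 in controls and 12.52, 12.74 and 12.50 with DAMTC. The groups did not overlap, though control replicate 1 came close to the DAMTC arrays (0.78 ± 0.31, adjusted p = 0.101). A second PSMC6 probe, whose groups overlapped, read 0.83, and without control replicate 1 PSMC6 passed (1.08, adjusted p = 0.00963). PSMC4 read 8.40, 6.64 and 6.02 in controls and 7.75, 7.42 and 9.04 with DAMTC. It was the most variable member (1.05 ± 0.63, adjusted p = 0.26), with 95% interval -0.37 to 2.48. It passed at 1.74 without control replicate 1 (adjusted p = 0.0218), and its further probes, each undetected on at least 1 array, read 0.33 and 0.21. PSMC1 had all DAMTC values above the controls (0.44 ± 0.24, adjusted p = 0.221), while PSMC2 and PSMC3 overlapped at 0.26 and 0.35.

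Of the other cap subunits, PSMD2, a scaffold of the base, read 10.45, 9.02 and 10.17 in controls and 10.46, 10.80 and 10.26 with DAMTC. Control replicate 2 was the low array, and the groups overlapped (0.63 ± 0.38, adjusted p = 0.273). PSMD4, a ubiquitin receptor, did not overlap between groups (0.41 ± 0.27, adjusted p = 0.303), and its second probe read 0.39. PSMD14, the deubiquitinase of the lid, differed by 0.30 ± 0.32. PSMD1, the other large scaffold, stayed near 0 at 0.08 ± 0.24. The lid subunits PSMD3, PSMD11 and PSMD6 read 0.55, 0.44 and 0.28, none past the threshold. PSMD12 was the single cap gene below 0 (-0.20 ± 0.26), and its second probe read 0.51, so that its sign depended on the probe.

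**Figure D2:**
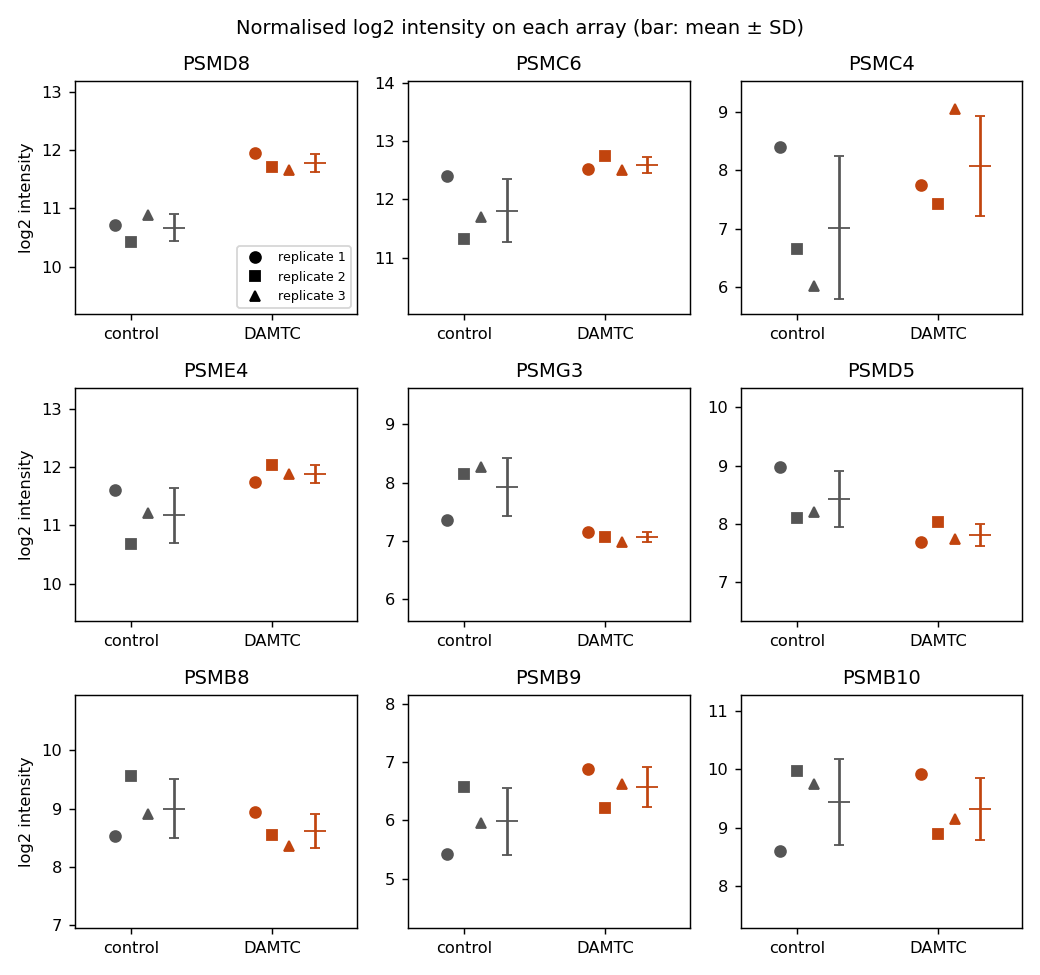
Normalised log2 intensity (y axis, a span of 4 log2 units in each panel) of 9 proteasome genes on each array, controls in grey and DAMTC in orange, with symbols for the replicate numbers and bars for the mean ± SD (n = 3). PSMD8 separates the groups, PSMC4 spreads over both, and PSMB8, PSMB9 and PSMB10 overlap.

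The 3 immunoproteasome subunits replace the catalytic ones of the core and are known to be induced by interferon gamma. None of the 3 passed, against 26.5% of all genes below 11.67, and their median was -0.12. PSMB8, which takes the place of PSMB5, read 8.54, 9.55 and 8.92 in controls and 8.94, 8.55 and 8.36 with DAMTC (-0.39 ± 0.32, adjusted p = 0.419). Its groups overlapped, while those of a second PSMB8 probe did not (-0.59 ± 0.28, adjusted p = 0.162 over all probes). PSMB9, which takes that of PSMB6, read 5.43, 6.58 and 5.95 in controls and 6.88, 6.21 and 6.63 with DAMTC (0.59 ± 0.34, adjusted p = 0.245). PSMB10, which takes that of PSMB7, read 8.60, 9.96 and 9.75 in controls and 9.92, 8.89 and 9.15 with DAMTC (-0.12 ± 0.42, adjusted p = 0.865). On the probes shown the groups of all 3 overlapped, and control replicate 1 was the lowest control. The 95% intervals were -1.11 to 0.33, -0.18 to 1.37 and -1.07 to 0.83, so a 2-fold difference in 1 direction lay inside each. The sign of their median rested on single arrays. It was -0.54 without control replicate 1, but 0.14 without control replicate 2, 0.04 without control replicate 3 and 0.10 without DAMTC replicate 2.

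Among the activators, 0 of 4 genes passed, against 24.9% of all genes, and the median difference was 0.22, or 0.10 without control replicate 1. PSME4, a large activator known in mice from histone degradation in sperm development, read 11.61, 10.68 and 11.22 in controls and 11.73, 12.04 and 11.87 with DAMTC. The groups did not overlap (0.71 ± 0.29, adjusted p = 0.109), and PSME4 passed without control replicate 1 (0.94, adjusted p = 0.0227). PSME2 read 11.41, 11.83 and 11.81 in controls and 12.19, 12.20 and 12.20 with DAMTC, again with no overlap (0.51 ± 0.24, adjusted p = 0.151). PSME1, which forms a ring with PSME2, differed by -0.07 ± 0.23, and its second probe read 0.25. PSME3, the nuclear activator, differed by -0.29 ± 0.29, and its second probe read -0.34. Whether PSME1 and PSME2 differed from each other was not tested.

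Of the 7 assembly factors 0 passed, against 24.9% of all genes, and 6 had a negative difference, with a median of -0.26. Of all 10779 genes 5633 had a negative difference, and over 16 alternatives the count among the assembly factors ran from 5 to 6. PSMG3, a chaperone of the alpha ring, read 7.35, 8.15 and 8.27 in controls and 7.16, 7.06 and 6.98 with DAMTC. All DAMTC values were below the controls and the difference was the lowest of the 41 (-0.86 ± 0.29, 95% interval -1.53 to -0.19, adjusted p = 0.0642). PSMG3 passed without control replicate 1 (-1.15, adjusted p = 0.00519), with arrays scaled to a common median (-1.19, adjusted p = 0.0236) and with the deposited processed values (-1.19, adjusted p = 0.0265). Median scaling and the deposited values also put the median of all genes at -0.26 and -0.19. With median scaling 2144 of all genes were lower and 898 higher. PSMD5, a chaperone of the cap ATPases, read 8.99, 8.11 and 8.21 in controls and 7.68, 8.03 and 7.74 with DAMTC. The groups did not overlap (-0.62 ± 0.30, adjusted p = 0.165), and PSMD5 passed with median scaling (-0.98, adjusted p = 0.0337). PSMG2 (-0.40), PSMD10 (-0.26), PSMG1 (-0.13) and PSMD9 (-0.10) lay between these and 0. POMP, which brings the half-made cores together, was the 1 assembly factor above 0. It read 12.41, 12.95 and 13.05 in controls and 13.33, 13.13 and 13.18 with DAMTC, with no overlap and a difference of 0.41 ± 0.26 (adjusted p = 0.294).

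Taken class by class and array by array, each gene was set to its own mean over the 6 arrays and the genes of a class were averaged. The cap genes stood at 0.04, -0.49 and -0.24 on the control arrays and 0.16, 0.24 and 0.29 on the DAMTC arrays, with control replicate 1 the nearest to the treated arrays. The core genes stood at -0.31, -0.05 and 0.17 against 0.11, 0.18 and -0.08, and their groups overlapped. The assembly factors stood at 0.02, 0.14 and 0.26 against -0.14, -0.07 and -0.21, without overlap. The immunoproteasome genes spread from -0.63 to 0.54 within the controls alone, wider than from -0.27 to 0.42 with DAMTC. These class values are descriptions of genes chosen as a group, and no test was made on them. Median scaling and the deposited processed values put the median of all genes at -0.26 and -0.19. The cap median was then 0.19 and 0.32, the core median 0.10 and 0.215 and the assembly median -0.45 and -0.37. Relative to the median of all genes these were 0.44 and 0.51, 0.36 and 0.41, and -0.20 and -0.18. With median scaling PSMA6 went from 0.13 to 0.10, but the dimmer PSMD11 from 0.44 to 0.12. The median of all genes is thus not matched in level to the core genes. Over 16 alternatives the cap median stayed between 0.19 and 0.52 and the assembly median between -0.45 and -0.19.

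**Figure D3:**
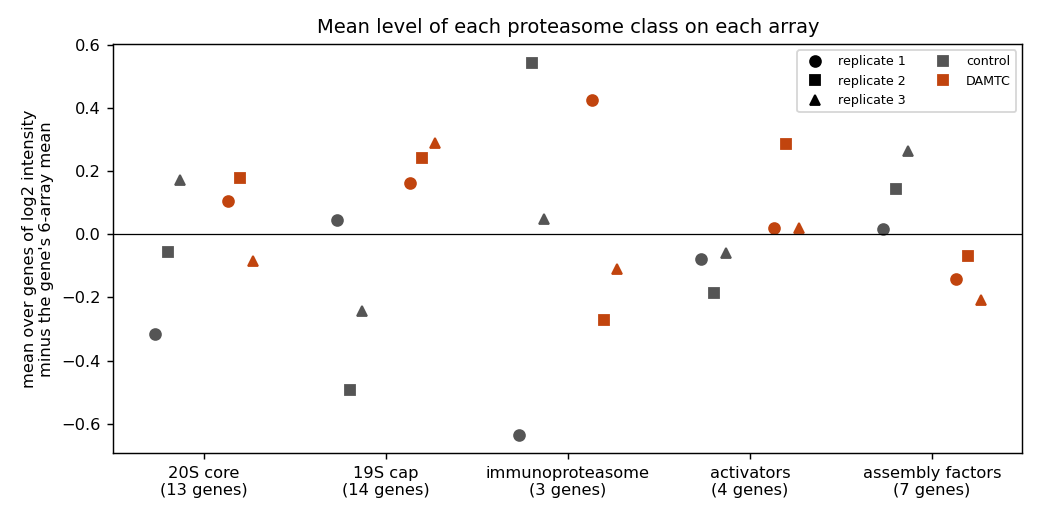
Mean over the genes of a class of log2 intensity minus the gene's mean over the 6 arrays (y axis) for 5 classes of proteasome genes, controls in grey and DAMTC in orange, symbols by replicate. The DAMTC points of the 19S cap lie between 0.16 and 0.29, above the controls, and those of the assembly factors lie below the controls.

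The number of proteasome genes past the threshold depended on the arrays used. Without control replicate 1, 4 were higher (PSMC4, PSMC6, PSMD8 and PSME4) and 1 was lower (PSMG3), while 34.3% of all genes passed. With array weights 6 were higher and 3 lower, 22% of the members against 45.1% of all genes. In each of the 16 alternatives the share of proteasome genes past the threshold was below that of all genes tested, from 0% against 15% without DAMTC replicate 1 to 22% against 45.1%. These shares of all genes are not matched to the members' level of intensity. As reported, 10.5% of genes at or above the members' median level passed and 26.5% of those below it. Matched shares were not computed for the alternatives, so part of the gap may go with level. Of 16 further probes of 14 members, 14 had the sign of the probe shown, 2 the opposite, and 0 passed in a fit of all probes.

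**Figure D4:**
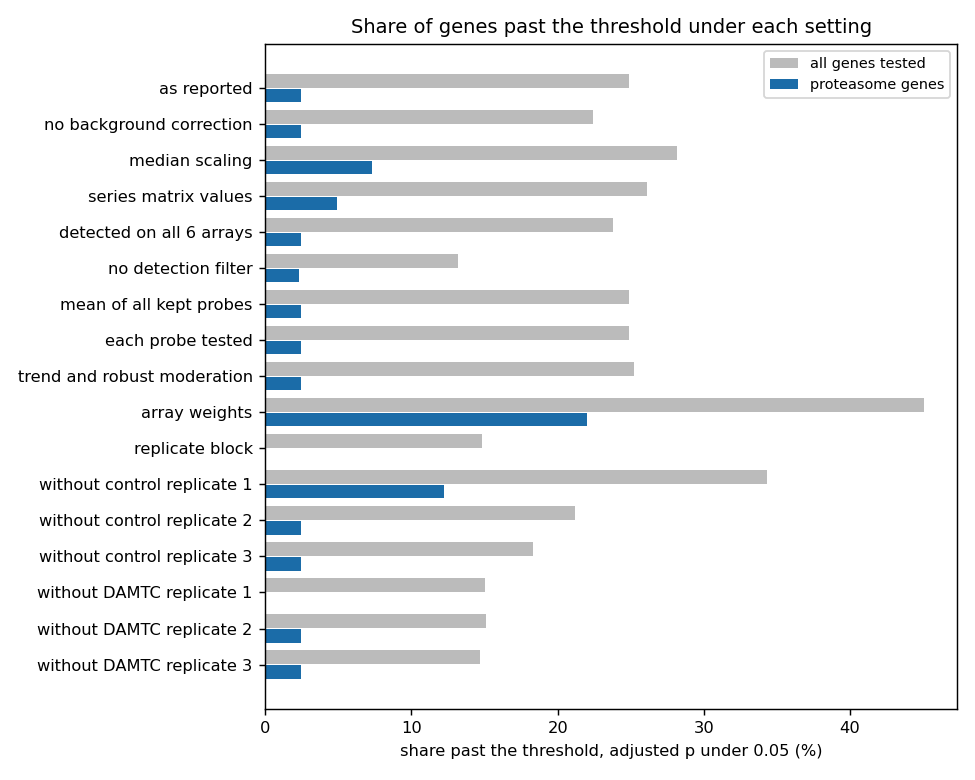
Share of genes past the threshold (x axis, percent) among the proteasome genes (blue) and among all genes tested (grey) as reported and under 16 alternatives. The blue bar is the shorter in each pair, from 0% to 22%. The grey bars are not matched to the level of intensity of the proteasome genes.

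Some other genes of the pathway gave larger differences than the proteasome genes. The median absolute difference was 0.45 for proteasome-associated factors, 0.77 for transcription control, 0.50 for ubiquitin and E1 genes and 0.41 for peptide loading. That of all genes was 0.52. The background of 24.9% holds for these lists too, with 12.2% of all genes higher and 12.8% lower. Among genes below 11.67 on the log2 scale the share past the threshold was 26.5%. Of 19 measured factors that work with the proteasome, 1 rose and 3 fell (21.1%, median -0.08). PITHD1, which carries the PITH domain also found in the proteasome-bound TXNL1, read 10.09, 9.52 and 9.88 in controls and 12.12, 12.63 and 12.57 with DAMTC, and rose 6.12-fold (2.61 ± 0.27, adjusted p = 4.99e-04). PAAF1, a chaperone of the cap ATPases, read 9.79, 9.92 and 9.90 in controls and 8.54, 8.88 and 8.33 with DAMTC, and fell (-1.29 ± 0.25, adjusted p = 0.0064). With PAAF1, a gene outside the PSM names, an assembly factor was thus past the threshold. UBQLN2 read 11.81, 11.42 and 11.15 in controls and 10.09, 10.20 and 10.33 with DAMTC, with no overlap. UBQLN2 and RAD23B, which carry ubiquitinated proteins to the cap, fell by 1.26 ± 0.26 and 1.20 ± 0.37 on the log2 scale (adjusted p = 0.00877 and 0.0429). RAD23B read 10.81 in control replicate 1 and 9.38 and 9.79 in the other controls, and passed in 9 of 16 alternatives. It did not pass without control replicate 3 (-1.31, adjusted p = 0.0779) or without any one of DAMTC replicates 1, 2 and 3 (-1.13, -1.28 and -1.19, adjusted p = 0.126, 0.0953 and 0.12). The cap-bound USP14 (-0.91, adjusted p = 0.0829) and UCHL5 (-0.19), both deubiquitinases, the receptor ADRM1 (0.43) and the ATPase VCP (-0.45) did not pass.

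Of 14 measured genes for the transcription control of the proteasome, 5 rose and 0 fell (35.7%, median 0.44), against 12.2% and 12.8% of all genes. NFE2L1, the main activator, read 10.53, 11.84 and 10.58 in controls and 10.67, 10.55 and 11.03 with DAMTC, and the groups overlapped (-0.23 ± 0.38, adjusted p = 0.695). NFE2L2, the related factor that KEAP1 restrains, ranged from 11.58 to 12.76 in controls and from 11.09 to 11.62 with DAMTC, and overlapped (-0.77 ± 0.34, adjusted p = 0.129). MAFF, a small MAF partner of both, read 6.93, 7.69 and 6.84 in controls and 10.13, 9.92 and 10.32 with DAMTC. It rose 7.83-fold (2.97 ± 0.30, adjusted p = 4.44e-04), the largest difference in the list, but by 1.21 on the log2 scale when all its kept probes were averaged (adjusted p = 0.00709). FBXW7, a ubiquitin ligase adaptor that can mark NFE2L1 for degradation, rose 3.10-fold (1.63 ± 0.25, adjusted p = 0.00246), and read 0.95 with all kept probes averaged (adjusted p = 0.026). NFYA, a CCAAT-binding subunit, rose 2.80-fold (1.49 ± 0.34, adjusted p = 0.0139) and ZNF143, a promoter-binding factor, 2.24-fold (1.17 ± 0.33, adjusted p = 0.0308). Without background correction NFYA read 0.63 (adjusted p = 0.031). The NFY subunits did not move together. NFYB was lower, with all DAMTC values below the controls (-0.84 ± 0.29, adjusted p = 0.0676), and NFYC differed by 0.30 ± 0.23 (adjusted p = 0.385), so neither passed. The fifth riser was NGLY1, which removes sugars from NFE2L1 (0.86 ± 0.26, adjusted p = 0.039). NGLY1 passed in 8 of 16 alternatives, and among those that leave out 1 array it passed without control replicate 1 alone (adjusted p of the others 0.0846 to 0.129). NFYA passed in 13 of 16 alternatives, but not without control replicate 3, DAMTC replicate 2 or DAMTC replicate 3 (adjusted p = 0.0511, 0.0559 and 0.0585). ZNF143 passed in 8 of 16, and not without control replicate 2, control replicate 3, DAMTC replicate 1 or DAMTC replicate 2 (adjusted p = 0.0852, 0.0913, 0.0853 and 0.121). Of the list, 2 genes passed when control replicate 3 or DAMTC replicate 2 was left out, and 3 passed when control replicate 2, DAMTC replicate 1 or DAMTC replicate 3 was.

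Of 3 measured ubiquitin and E1 genes none passed. UBB, a polyubiquitin gene, read 14.43, 14.58 and 14.67 in controls and 15.11, 15.19 and 15.11 with DAMTC (0.58 ± 0.22, adjusted p = 0.0951). Its groups did not overlap, and it passed in 5 of 16 alternatives.

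The immunoproteasome works with the genes that load peptides on MHC class I. In that list 4 of 14 measured genes rose while 0 fell (28.6%, median 0.10), against 12.2% and 12.8% of all genes. HLA-B read 5.35, 6.82 and 5.62 in controls and 7.73, 7.77 and 8.27 with DAMTC, a rise of 3.99-fold (2.00 ± 0.39, adjusted p = 0.0073). HLA-E rose 3.36-fold (1.75 ± 0.29, adjusted p = 0.00355) and HLA-F 2.86-fold (1.52 ± 0.30, adjusted p = 0.00698), though probes of these similar genes may share targets. Without background correction HLA-B read 0.98 and HLA-F 0.85 on the log2 scale, both past the threshold. B2M, the light chain of class I, rose 1.96-fold (0.97 ± 0.25, adjusted p = 0.0233) and passed in 11 of 16 alternatives. B2M did not pass without control replicate 3 or without any one of DAMTC replicates 1, 2 and 3 (adjusted p = 0.076, 0.0717, 0.0855 and 0.0786). The peptide transporter genes TAP1 and TAP2, which neighbour PSMB8 and PSMB9, differed by -0.17 ± 0.34 and -0.11 ± 0.34, and IRF1, an inducer of the immunoproteasome, by 0.65 ± 0.34 (adjusted p = 0.196). Genes of class I chains were thus past the threshold and those of the immunoproteasome and the transporter were not, and the difference between these responses was not tested.

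**Figure D5:**
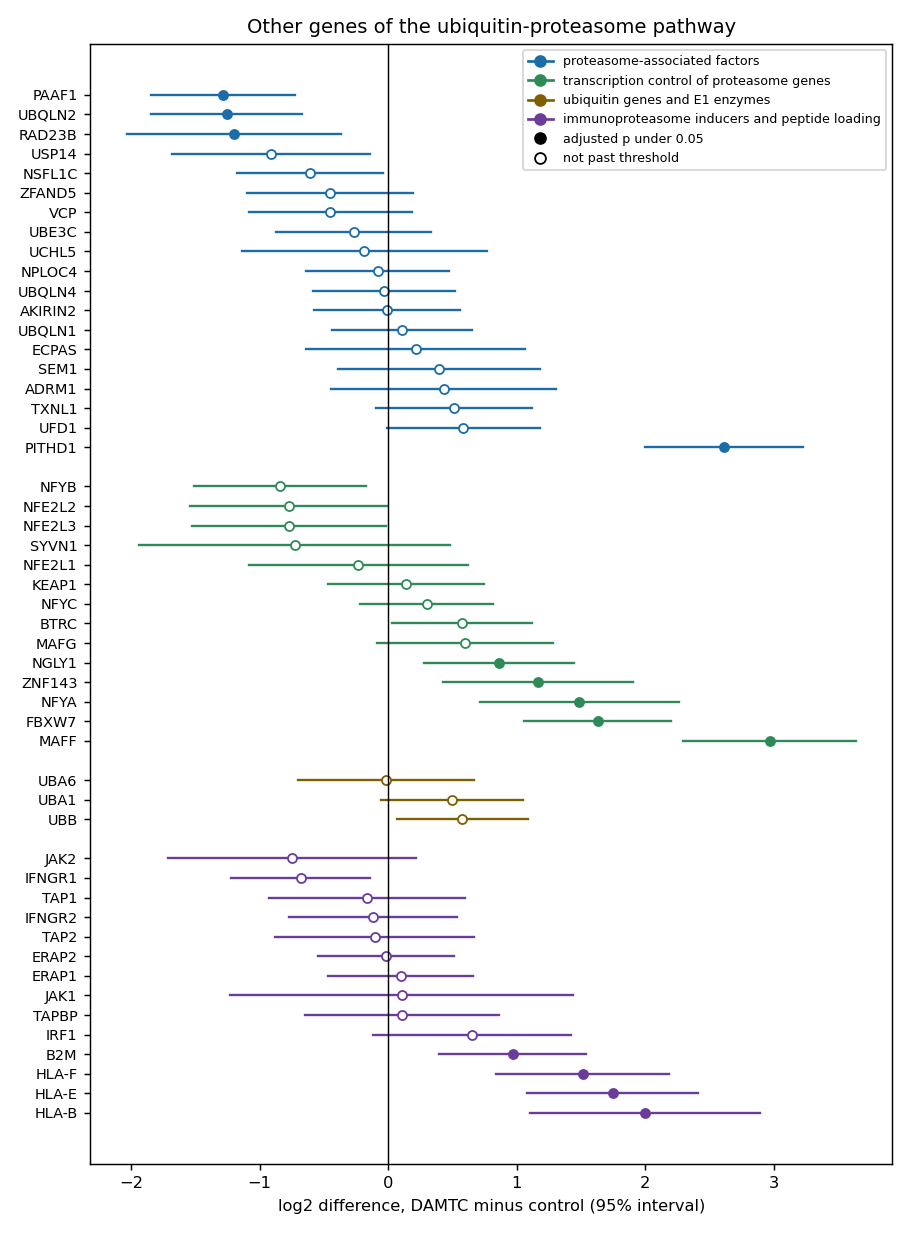
Log2 difference (DAMTC minus control, x axis) with 95% interval for the measured genes of 4 lists around the proteasome, filled where adjusted p was under 0.05. PITHD1 at 2.61 and MAFF at 2.97 lie farthest to the right and PAAF1 at -1.29 farthest to the left among genes past the threshold.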

How the data were processed

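Per the labels, total RNA of A549 cells was amplified, biotin-labelled and hybridised to Illumina Human-6 arrays, and BeadStudio is named in the submitters' processing notes. The deposited table holds, per the file headers, the mean bead intensity of each probe on a linear scale, a detection p-value, the count of beads and their standard error. The deposited series matrix values were a straight line of these intensities (largest residual 0.0107), with an offset of 119 to 141 subtracted and column medians of 8.59 to 10.9, and served as an alternative, with values under 16 set to 16.

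Intensities were corrected with nec of limma 3.58.1 (R 4.3.3, offset 16, background from the detection p-values), quantile normalised and log2-transformed. Of 48803 probes, 27578 had 1 symbol in the platform annotation. Probes detected at p under 0.05 on 3 or more arrays were kept and each gene was read from its brightest kept probe, which left 10779 of 18665 genes. The groups were then set against each other with lmFit and eBayes over all genes, with Benjamini-Hochberg adjustment and a threshold of 0.05. The path was also run on simulated data with independent noise, without an outlying array or an effect of array position. No result here rests on that run. All members are named, with values per array for those past the threshold, the 2 largest differences of each role, POMP and the immunoproteasome. Up to 4 genes past the threshold are named per list, or else that of smallest p, with NFE2L1 and NFE2L2. Others there, among them NGLY1, beyond the 4 of its list, were chosen after their values were seen, as was CDH1. The members and lists were chosen with earlier results of these data known.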

Additional observations from a re-analysis of the deposited data

How the results depend on the processing

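Over 16 alternatives of background, scaling, filter, probe rule, moderation, weights, block and arrays, no named gene that passed changed its sign. PSMD8 stayed past the threshold in 14 of them. The proteasome genes higher with DAMTC numbered 1 as reported, 6 with array weights, 0 with a replicate block, 0 at adjusted p under 0.01 and from 0 to 4 when 1 array was left out. The lower ones numbered 0 as reported, 2 with median scaling, 1 with the deposited processed values, 3 with array weights, 1 at adjusted p under 0.10 and from 0 to 1 with 1 array left out. All genes changed numbered 2688 as reported, 4860 with array weights, 1594 with the replicate block, 1277 at adjusted p under 0.01 and from 1581 to 3694 with 1 array left out. Median scaling left 29.5% of the changed genes higher and the deposited processed values 36.1%, against 48.7%. The median difference of the cap genes was 0.19 with median scaling. With array weights 8 of the proteasome-associated factors changed. Of the transcription control genes 3 changed with the replicate block and from 2 to 6 with 1 array left out. Of the ubiquitin and E1 genes 1 changed without background correction, without a detection filter, with the mean of all kept probes, with trend and robust moderation and with array weights. The cause of these shifts was not tested. No pairing of the arrays by replicate number was found: deviations of same-numbered arrays from their group means correlated at -0.457 to -0.178, 0 of 3 pairs above 0.1. With 3 arrays per group, whose deviations depend on each other, this cannot show that same-numbered samples were handled apart. With the replicate block PSMD8 read 1.10 with adjusted p = 0.0593. Signal over background limits dim probes such as that of PSMB9, and the number of arrays limits the precision of all values.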
